A study of Mus musculus with 2 samples.

Results

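The genes described here were the ligands and receptors of the 4 classical axon guidance systems: semaphorins with plexins, ephrins with Eph receptors, Slits with Robos, and the netrins. They were chosen by gene symbol alone, as every gene with a symbol starting with Sema, Plxn, Epha, Ephb, Efna, Efnb, Robo, Slit or Ntn (the last 2 followed by a digit) that had at least 20 unique molecular identifiers (UMIs, each standing for 1 captured transcript) over both libraries. Of 25814 genes with counts, 59 met the rule. They were 20 semaphorins, 9 plexins, 8 ephrins, 12 Eph receptors, 3 Slits, 4 Robos and 3 netrins. The members with the fewest UMIs were Robo3 with 36 and Efna3 with 37, and the genes left out were Epha10 with 14, Epha6 with 8 and Ntn5 with 1.

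The data were single-cell RNA profiles of cells sorted by flow cytometry for a Nestin-GFP transgene, 1 library from brain and 1 from lung, of adult mice of about 6 weeks. The transgene places GFP under regulatory elements of Nestin, an intermediate filament gene used by neural stem cells and also by other cell types, so the sort did not isolate a single cell type. The labels give the strain as C57BL/6, whereas the methods name CD1 mice and crosses of CD1 with C3H. The study describes the single-cell experiment as done a single time, with 1 biological replicate per tissue, and the number of animals is not given in the sources used here. The study asked whether lung holds cells like the neural stem cells of the brain. With 1 library per tissue there was no test and no p-value, every interval below is a 95% interval of counting error alone, and tissue, library and depth cannot be told apart between brain and lung.

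After filtering, 4151 of 4640 brain barcodes and 5608 of 5981 lung barcodes were kept, with a median of 4209 and 5585 UMIs per cell, and 11 kept barcodes occurred in both libraries (15 before filtering). Cells were assigned to classes by counting markers: a cell entered a class when it had UMIs of at least 3 of its 8 markers and of at least 2 more than of any other class. None of the 59 genes was a marker. In brain, the gates held 1900 neuroblast-like cells, 810 quiescent stem cell-like or astroglia-like cells (the quiescent class), 65 activated progenitor-like cells, 312 endothelial-like cells and 158 pericyte-like cells. In lung, they held 2298 pericyte-like, 830 myofibroblast-like, 595 endothelial-like, 389 matrix fibroblast-like and 85 smooth muscle-like cells. The gates left 11.4% of brain cells and 22.1% of lung cells unassigned. Cells carried on average between 5.17 (matrix fibroblast) and 7.46 (brain pericyte) of the 8 markers of their own class. The activated class was small and deep, with a median of 9226 UMIs, and 25 of its 65 cells had only the smallest lead allowed, as had 199 of the 389 matrix fibroblast-like cells and 330 of the 830 myofibroblast-like cells.

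Guidance cues are proteins on the surface of cells or released by them that attract or repel a growing axon or a migrating cell through a receptor on that cell. Semaphorins act mainly through plexins, with neuropilins as partners for secreted forms, ephrins bind Eph receptor tyrosine kinases in contacts between cells, Slits bind Robos, and netrins bind receptors of other families. In the adult brain, Slits and Robos are known for their part in the migration of neuroblasts towards the olfactory bulb, and ephrin-B2 with its receptor EphB4 is known for the division of arteries and veins.

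Levels are given as CPM, the UMIs of a gene summed over the cells of a class and scaled to 1000000 UMIs of that class. Because each transcript was counted at its 3′ end, the scale does not depend on transcript length. The summed CPM of the 59 genes was 3550 in lung endothelial-like cells, followed by 1969 in neuroblast-like cells, 1939 in brain endothelial-like cells and 1903 in myofibroblast-like cells. It was 1591 in matrix fibroblast-like cells, 1385 in the quiescent class, 1344 in brain pericyte-like cells, 1238 in smooth muscle-like cells, 1093 in activated progenitor-like cells and 835 in lung pericyte-like cells. Of these genes, 10 stayed under 20 CPM in all 10 classes, 20 reached 20 CPM in 1 or 2 classes, 23 in 3 to 7 classes and 6 in 8 or more. The 6 widely found genes were Efnb1, Plxnb2, Plxna2, Epha4, Sema6d and Sema4c. Efnb1, the transmembrane ligand ephrin-B1, ranged from 25.2 CPM (17 to 35.9) in brain endothelial-like cells to 124 CPM (112 to 136) in lung endothelial-like cells and reached 20 CPM in each of the 10 classes.

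**Figure D1:**
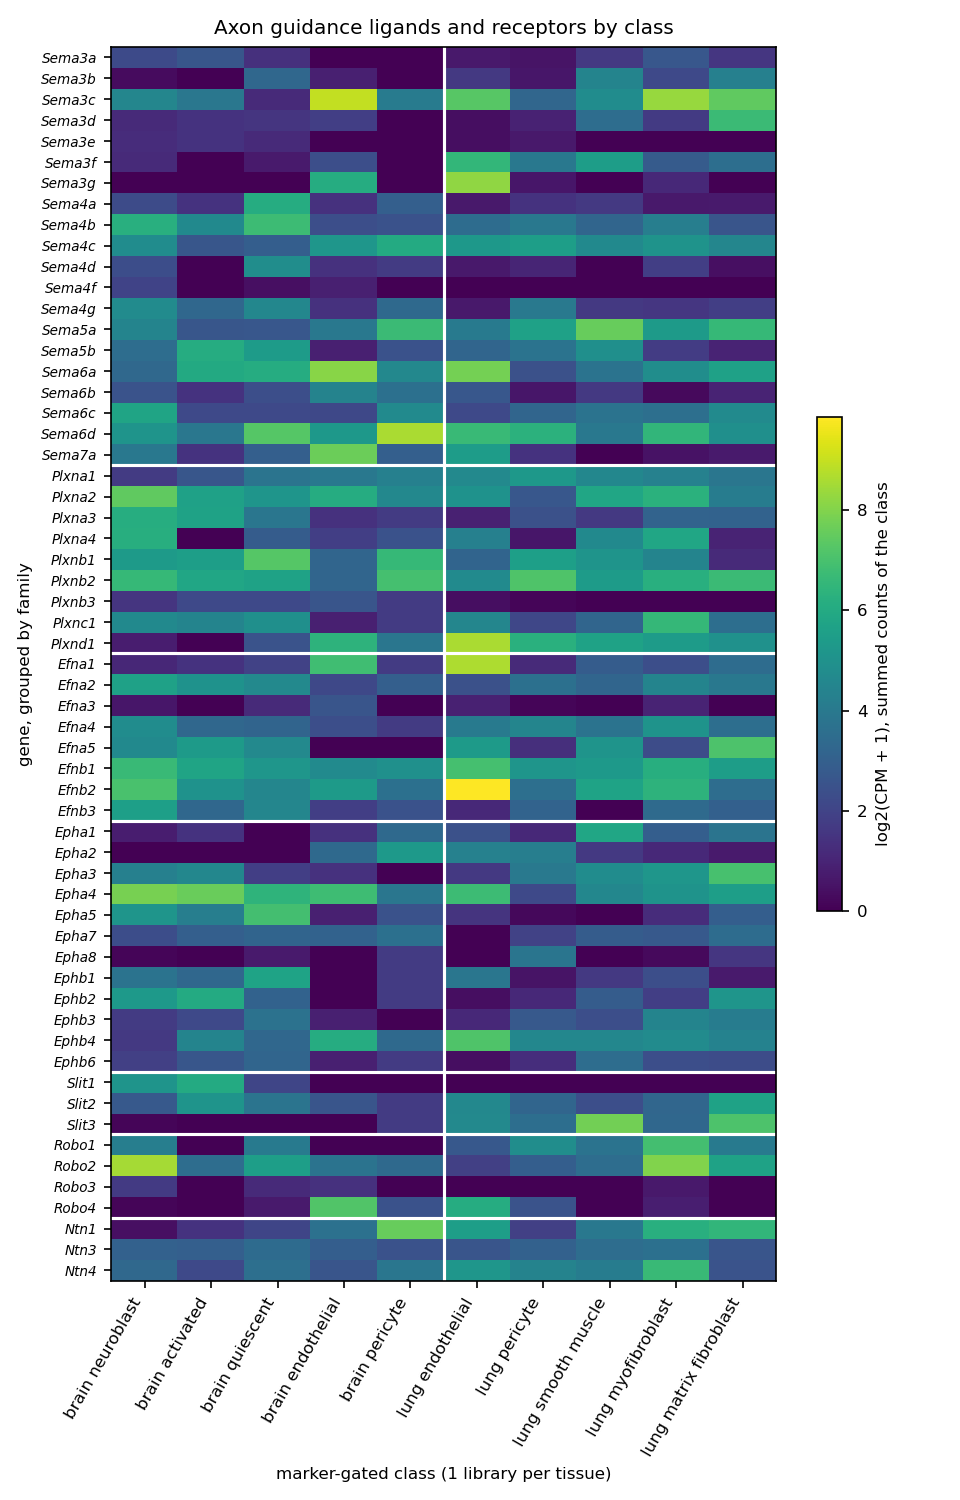
Level of each of the 59 genes (rows, grouped by family) in the 10 marker-gated classes (columns, brain to the left and lung to the right of the white line), as log2(CPM + 1) of the summed counts. The brightest cell is Efnb2 in lung endothelial-like cells at 931 CPM, and Robo2 is bright in both neuroblast-like cells (370 CPM) and myofibroblast-like cells (252 CPM).

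The families were spread unevenly over the 10 classes. Semaphorins, the largest ligand family, summed to 1169 CPM (1108 to 1232) in brain endothelial-like cells and 1001 CPM (968 to 1036) in lung endothelial-like cells, against 315 CPM (303 to 326) in neuroblast-like cells. Their plexin receptors varied less, from 185 CPM (171 to 201) in matrix fibroblast-like cells to 525 CPM (501 to 550) in lung endothelial-like cells. Ephrins reached 1522 CPM (1481 to 1564) in lung endothelial-like cells and 381 CPM (369 to 394) in neuroblast-like cells, and were lowest in brain pericyte-like cells at 57.6 CPM (37.3 to 85.1). Eph receptors summed to 345 CPM (299 to 397) in activated progenitor-like cells and 344 CPM (332 to 356) in neuroblast-like cells, a difference within counting error. Netrins were highest in brain pericyte-like cells at 210 CPM (169 to 258) and myofibroblast-like cells at 187 CPM (176 to 200), intervals that overlapped.

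Slits and Robos had their highest levels in different classes. The ligand Slit1 was at 64.8 CPM (45.6 to 89.3) in activated progenitor-like cells and 33.2 CPM (29.6 to 37.1) in neuroblast-like cells, and had no UMI in the 5 lung classes. Among the 10 classes, Slit2 was highest in matrix fibroblast-like cells at 50.6 CPM (43 to 59.1). Of the brain classes among them, activated progenitor-like cells were highest at 33.3 CPM (20 to 52). Slit3 was almost confined to lung among these 10 classes, at 216 CPM (176 to 262) in smooth muscle-like cells and 135 CPM (123 to 149) in matrix fibroblast-like cells, against 1 UMI in neuroblast-like cells and 1 in brain pericyte-like cells. The receptor Robo2 led neuroblast-like cells at 370 CPM (357 to 382), followed by myofibroblast-like cells at 252 CPM (239 to 267). Next came matrix fibroblast-like cells at 50.3 CPM (42.7 to 58.8) and the quiescent class at 45.1 CPM (38 to 53.2), neighbours that did not differ beyond counting error. Among the same 10 classes, Robo1 was highest in myofibroblast-like cells at 119 CPM (109 to 129) and Robo4 in brain endothelial-like cells at 144 CPM (124 to 168). Robo3 stayed at or under 2.22 CPM in each of the 10.

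The Robo2 signal was also seen cell by cell. After each cell was thinned to 1000 UMIs, 32.6% of neuroblast-like cells (30.5% to 34.8%, n = 1872) had a Robo2 UMI, against 1.32% of brain endothelial-like cells (0.361% to 3.35%, n = 303). Without thinning, the shares were 70.4% and 3.21%, at median depths of 4472.5 and 3791 UMIs. In lung, the thinned share was 21.3% of myofibroblast-like cells (18.6% to 24.3%, n = 826) and 0.338% of endothelial-like cells (0.041% to 1.22%, n = 591), with unthinned shares of 68.6% and 1.34% at median depths of 6121 and 5380 UMIs. Free RNA in the droplets was not measured here, and the endothelial-like share is given only for comparison.

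Neuroblast-like cells were compared with the quiescent class. That class held more astrocyte-like than stem cell-like cells by the sub-gates given below (327 against 130 cells), and astrocyte genes such as Aldh1l1 and Grin2c were among its leading genes, so the comparison is not one of neuroblasts with stem cells alone. A gene was called past 2-fold when the ratio of CPM was at least 2 or at most its inverse, among genes with at least 20 UMIs over both classes. Of 48 guidance genes so measured, 20 (41.7%) were higher in neuroblast-like cells, against 26.5% of all 13345 genes measured, and 16 (33.3%) were higher in the quiescent class, against 24.4% of all genes. The median log2 ratio was 0.21 for the guidance genes and 0.20 for all genes.

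Receptors of the Slit and plexin systems differed member by member. Robo2 was higher in neuroblast-like cells, 8.19-fold (6.92 to 9.76), whereas Robo1 was at 17.8 CPM (15.2 to 20.7) against 15.3 CPM (11.2 to 20.2), within counting error. The ligand Slit1 was 10.4-fold higher (5.61 to 22), at 33.2 against 3.18 CPM. Plxna4, Plxna3 and Plxna2, receptors for class 3 and class 6 semaphorins, were 11.3-fold (7.27 to 18.6), 5.07-fold (3.72 to 7.07) and 5.05-fold (4.16 to 6.19) higher. The remaining class A member, Plxna1, went the other way and was 5.6-fold higher (3.26 to 9.87) in the quiescent class. Among ligands, the secreted semaphorin Sema3c was at 21.9 CPM in neuroblast-like cells and 1.27 CPM in the quiescent class, and the transmembrane Sema6c was at 53.7 against 3.5 CPM. Of the Eph system, Epha3 was 7.28-fold (3.61 to 17.1), Efnb2 5.81-fold (4.56 to 7.5) and Ephb2 5.05-fold (3.34 to 7.98) higher in neuroblast-like cells. Epha4, the second most abundant guidance transcript of these cells, was at 228 CPM (219 to 238) against 84.5 CPM (74.7 to 95.3).

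The quiescent class was higher in several transmembrane semaphorins. Sema4a was at 68.6 CPM (59.8 to 78.4) there and 3.81 CPM (2.67 to 5.27) in neuroblast-like cells, an 18-fold difference (12.6 to 26.4). Sema6a was 7.36-fold (5.71 to 9.56), Sema4d 6.8-fold (4.59 to 10.2), Sema6d 4.64-fold (4.02 to 5.36) and Sema5b 3.97-fold (3.04 to 5.2) higher. Plxnb1, a receptor for Sema4d, was 3.78-fold higher (3.3 to 4.33), at 153 against 40.4 CPM. The Eph receptors Ephb3, Ephb1 and Epha5 were 5.19-fold (2.99 to 9.22), 4.19-fold (3.28 to 5.36) and 3.43-fold (2.95 to 3.99) higher. Semaphorin classes 4 and 5 were split, since Sema4c was at 27 CPM (23.7 to 30.5) and Sema5a at 21 CPM (18.2 to 24.2) in neuroblast-like cells, against 6.67 CPM (4.13 to 10.2) and 5.4 CPM (3.15 to 8.65) in the quiescent class.

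**Figure D2:**
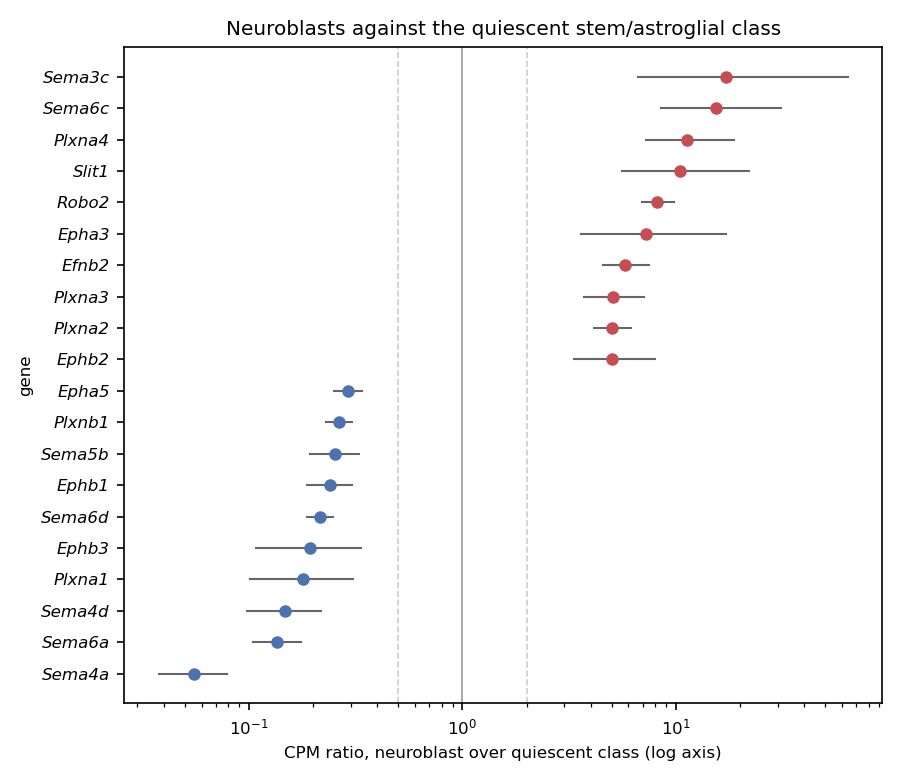
CPM ratio of neuroblast-like cells over the quiescent class (log axis) for the 10 genes with the highest ratio (red) and the 10 with the lowest (blue) among those with at least 50 UMIs, with 95% intervals of counting error; dashed lines mark 2-fold. Ratios run from 17.2 for Sema3c to 0.0554 for Sema4a, and each interval lies outside the dashed lines.

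Other genes of the pathway, from a list of 30 co-receptors, further cues and cytoplasmic effectors, were past 2-fold in 12 of 29 measured cases towards neuroblast-like cells and in 10 towards the quiescent class, against 26.5% and 24.4% of all genes. L1cam, an adhesion molecule of axons, was at 31.3 against 0.636 CPM. Crmp1 and Dpysl3, cytoplasmic mediators of semaphorin signals, were 38.6-fold (26.5 to 58.6) and 27.4-fold (22.6 to 33.7) higher in neuroblast-like cells. Ngef, an exchange factor that acts under EphA receptors, and Rgma, a ligand of neogenin, were 48.9-fold (31.8 to 79) and 32.1-fold (23.4 to 45.2) higher in the quiescent class.

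Within each of these classes, sub-gates were compared. Neuroblast-like cells with at least 2 of 6 cell cycle markers (363 cells, median 8059 UMIs) were set against those with none (1346 cells, median 4063 UMIs). Of 42 guidance genes measured, 14 were higher in the non-cycling cells, against 9.33% of all genes, and 1 was higher in the cycling cells, against 7.84%. Robo2 was at 473 CPM in non-cycling and 173 CPM in cycling cells, a 2.74-fold difference (2.49 to 3.02). Plxna4 was 4.68-fold (3.58 to 6.22), Sema3c 4.09-fold (2.59 to 6.77) and Sema5a 3.47-fold (2.21 to 5.7) higher in non-cycling cells. Epha3 was the gene that went the other way, at 35.3 CPM in cycling and 11.2 CPM in non-cycling cells, and was 3.16-fold higher (2.29 to 4.41) in the former. Depth moved with this split, and its part in the result was not tested.

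The quiescent gate held both stem cell-like and astrocyte-like cells. It was split into cells with Thbs4 or Gfap but neither Slc7a10 nor Agt (the stem sub-gate, 130 cells) and the reverse (the astrocyte sub-gate, 327 cells). Of 24 guidance genes measured, 7 were higher in the stem sub-gate, against 9.35% of all genes, and 5 in the astrocyte sub-gate, against 7.84%. Efnb1 was at 68.7 against 15.1 CPM, 4.54-fold higher in the stem sub-gate (2.53 to 8.32), while Sema4a was 2.82-fold higher (1.65 to 5.18) in the astrocyte sub-gate. Sema5b and Plxnb2 were 2.27-fold (1.34 to 3.79) and 2.01-fold (1.22 to 3.25) higher in the stem sub-gate, and Sema6d was 2.02-fold higher (1.44 to 2.9) in the astrocyte sub-gate.

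Activated progenitor-like cells, the class between stem cells and neuroblasts, were set against the quiescent class. Of 39 guidance genes measured, 7 (17.9%) were higher in the activated class, against 23.1% of all genes, and 15 (38.5%) were higher in the quiescent class, against 25% of all genes. The median log2 ratio was -0.34 for guidance genes and 0.02 for all genes. Ephb2 was at 64.8 CPM (45.6 to 89.3) in the activated and 7.63 CPM (4.89 to 11.3) in the quiescent class, 8.5-fold apart (4.95 to 14.8). Plxna3, Slit2 and Epha4 were 3.72-fold (2.24 to 6.09), 2.55-fold (1.4 to 4.5) and 2.28-fold (1.81 to 2.86) higher in the activated class. The quiescent class was higher in Sema6d, 11-fold (5.51 to 25.5), in Epha5, 6.77-fold (3.64 to 14.2), and in Sema4b, 4.43-fold (2.61 to 8.19). Sema4a had 1 UMI in the activated class against 68.6 CPM in the quiescent class. Of the other pathway genes, 6 of 27 were higher in the activated class, led by Dpysl3 (17.3-fold, 13.8 to 21.9) and Draxin, a secreted antagonist of netrin receptors (13.3-fold, 7.94 to 22.9), and 12 were higher in the quiescent class, against 23.1% and 25% of all genes.

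Between activated progenitor-like and neuroblast-like cells, Robo2 differed widely. It was at 10.5 CPM (3.86 to 22.9) in the former, from 6 UMIs, and at 370 CPM in the latter, 35.2-fold apart (16.1 to 95.9). Of 42 guidance genes measured, 17 (40.5%) were higher in neuroblast-like cells, against 14.8% of all genes, and 5 (11.9%) were higher in the activated class, against 14% of all genes. Plxna4 had no UMI in the activated class and was at least 13.7-fold higher in neuroblast-like cells, when the activated class was set at the 3 counts that a count of 0 allows. Robo1, set against the same floor, was 3.38-fold higher. Sema6c, Efnb3, Sema4c and Efnb2 were 15.3-fold (4.22 to 127), 5.32-fold (2.26 to 16.5), 5.13-fold (1.74 to 25) and 4.1-fold (2.58 to 6.94) higher in neuroblast-like cells. Sema6a, Sema5b and Slit2 were 6.86-fold (4.51 to 10.2), 6.46-fold (4.34 to 9.44) and 5.83-fold (3.26 to 9.99) higher in the activated class. Of the other pathway genes, 12 of 29 were higher in neuroblast-like cells and 3 in the activated class, against 14.8% and 14% of all genes.

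Endothelial-like cells were compared with pericyte-like cells, their neighbours on the vessel wall, in each library. In brain, 21 guidance genes were measured, of which 11 (52.4%) were higher in endothelial-like cells, against 19.2% of all genes, and 6 (28.6%) were higher in pericyte-like cells, against 14.3%. In lung, 46 were measured, of which 22 (47.8%) were higher in endothelial-like cells, against 14.2% of all genes, and 15 (32.6%) were higher in pericyte-like cells, against 18.4%. The median log2 ratio of the guidance genes was 1.56 in brain and 0.59 in lung, against 0.02 and -0.03 for all genes. The brain pericyte-like class was the shallowest used here, with 433827 UMIs in all, so 3 counts in it correspond to 6.92 CPM.

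Sema3g and Robo4 had their highest levels in the endothelial-like classes. Sema3g, a secreted class 3 semaphorin, was at 299 CPM (281 to 318) in lung and 68 CPM (54 to 84.5) in brain endothelial-like cells, and at or under 1.19 CPM in the other 8 classes. After thinning, 28.4% of lung endothelial-like cells (24.8% to 32.2%) and 5.61% of brain endothelial-like cells (3.3% to 8.83%) had a Sema3g UMI, against 0 of 2273 lung pericyte-like cells and 0 of 1872 neuroblast-like cells. Without thinning the endothelial shares were 71.1% and 14.7%. Robo4, the Robo known from endothelium, was at 144 CPM in brain and 67.1 CPM (58.7 to 76.5) in lung endothelial-like cells, and next highest in lung pericyte-like cells at 4.76 CPM (3.59 to 6.18), which held 56 of its lung UMIs against 227 in endothelial-like cells. The mouse Robo4 gene lies at chromosome 9, 37401902 to 37414023, and Sema3g at chromosome 14, 31217873 to 31230352, in build GRCm38.p6 of RefSeq.

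The promoter of Sema3g is shown because the gene was found mainly in endothelial-like classes. It is the 250 bases before the start that RefSeq gives on GRCm38.p6, at chr14:31217623-31217872 (plus strand). Capitals mark AGGAAG, read here on the other strand (CTTCCT), a motif around the core bound by ETS factors.
Sema3g: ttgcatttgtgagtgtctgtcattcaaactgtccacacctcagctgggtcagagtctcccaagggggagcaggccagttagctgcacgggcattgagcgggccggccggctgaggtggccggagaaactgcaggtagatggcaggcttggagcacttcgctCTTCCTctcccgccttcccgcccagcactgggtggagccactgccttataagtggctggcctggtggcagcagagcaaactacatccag
Sema3g held 1 match. The motif is common: 29.5% of all 32851 promoters of this length held it on either strand, as did 37.3% of the 67 promoters listed for 51 of the 59 members. Of the 6 genes named as higher in endothelial-like cells in both libraries that had a promoter, 2 (Efna1 and Sema3g) held a match in at least 1 listed start. Counted in the same way, 32.3% of all 27025 genes with a promoter held a match. A match is a string of letters and not a bound site, and its absence says nothing about any factor.

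Beside these genes, the endothelial side held ligands of several families. Efna1, an ephrin anchored in the membrane by a lipid, was at 404 CPM (383 to 426) in lung and 112 CPM (94.2 to 133) in brain endothelial-like cells, against 1.27 and 2.31 CPM in pericyte-like cells. Sema6a was 49.5-fold higher (37.4 to 66.6) in lung and 12-fold higher (6.47 to 25.4) in brain endothelial-like than pericyte-like cells. Sema7a was 25.4-fold (15.9 to 42.8) and 28.5-fold (9.64 to 139) higher, and Sema3c 18.4-fold (14.8 to 23) and 30.8-fold (14.8 to 76.9) higher, in the same order. Of receptors, Epha4 was 31.2-fold (22.5 to 44.1) and 7.89-fold (3.53 to 21.9) higher. Plxnd1, the endothelial plexin that binds Sema3e, was at 394 CPM (373 to 416) in lung endothelial-like cells and 82.2 CPM (66.8 to 100) in brain endothelial-like cells, against 76.7 CPM (71.8 to 81.9) and 13.8 CPM (5.08 to 30.1) in pericyte-like cells. Ephb4, the receptor known from veins, was at 142 CPM (130 to 156) and 67.1 CPM (53.2 to 83.5).

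The pericyte side held Plxnb1 and Plxnb2 of the class B plexins and single semaphorins. Plxnb2 was 14.8-fold (7.48 to 32.7) higher in brain and 5.54-fold (4.46 to 6.97) higher in lung pericyte-like than endothelial-like cells, and Plxnb1 11.5-fold (5.7 to 25.8) and 5.78-fold (3.93 to 8.85). Sema5a was 7.43-fold (4.18 to 13.8) and 3.23-fold (2.42 to 4.39) higher. Sema6d was 10.4-fold higher (7.43 to 14.8) in brain pericyte-like cells, where it was the most abundant member at 392 CPM (335 to 455). In lung, Sema6d was at 103 CPM (92.1 to 114) in endothelial-like and 78.9 CPM (74 to 84.2) in pericyte-like cells, within 2-fold. Genes higher in lung pericyte-like cells also included Sema4g (24.9-fold, 6.78 to 207), Epha3 (7.1-fold, 3.37 to 17.9), Robo1 (4.85-fold, 3.06 to 8.17) and Epha8. Epha8 had no UMI in lung endothelial-like cells and was 14.7-fold higher with that class set at 3 counts.

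The endothelial-like and pericyte-like classes could be compared in both tissues for part of the members. Of 17 genes with at least 50 UMIs in each library's comparison, 14 were past 2-fold on the same side in both, and 1, the netrin Ntn1, was past 2-fold on opposite sides. Of all 5464 genes with that many UMIs in both, 16.2% were past 2-fold on the same side and 1.81% on opposite sides. Ntn1, a secreted laminin-related cue, was at 191 CPM (152 to 237) in brain pericyte-like and 11.7 CPM (6.42 to 19.7) in brain endothelial-like cells. In lung it was at 2.63 CPM (1.79 to 3.74) in pericyte-like and 45 CPM (38.1 to 52.7) in endothelial-like cells. After thinning, 15.8% of brain pericyte-like cells (10.5% to 22.5%, n = 158) had a Ntn1 UMI, against 0.33% of brain endothelial-like cells (0.00836% to 1.83%, n = 303), while in lung the shares were 0.264% (0.0969% to 0.574%) and 4.74% (3.17% to 6.77%). Unthinned, they were 40.5%, 3.85%, 1.13% and 21.5%.

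Of the other pathway genes, in brain 7 of 20 measured were higher in endothelial-like cells (19.2% of all genes) and 5 in pericyte-like cells (14.3% of all genes). In lung they were 9 of 24 (14.2% of all genes) and 7 (18.4% of all genes). Rgma and Chn1, a Rac-directed GTPase-activating protein, were on the pericyte side in both. Chn1 was at 96.8 CPM in brain and 106 CPM in lung pericyte-like cells, against 0 and 5.92 CPM in endothelial-like cells. Srgap2, a GTPase-activating protein that binds Robos, was 8.03-fold higher (4.88 to 14.2) in brain endothelial-like cells, and Vav3, an exchange factor, 21.8-fold higher (11.5 to 45.8) in lung endothelial-like cells.

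The same vessel class was also compared between tissues. Of 34 guidance genes measured in endothelial-like cells, 6 (17.6%) were higher in brain, against 11.1% of all genes, and 21 (61.8%) were higher in lung, against 14.1% of all genes. The median log2 ratio of brain over lung was -1.52 for guidance genes and -0.03 for all genes. Efnb2, ephrin-B2, was at 931 CPM (899 to 964) in lung and 40.3 CPM (29.7 to 53.4) in brain endothelial-like cells, a 23.1-fold difference (17.4 to 31.4). It had a UMI in 59.7% of thinned lung cells (55.7% to 63.7%) and 4.29% of thinned brain cells (2.3% to 7.23%), and in 90.9% and 12.2% without thinning.

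Lung endothelial-like cells were higher in further ligands and receptors. Sema3f was 21.6-fold (9.18 to 67.1), Efnb1 4.92-fold (3.4 to 7.39), Ntn4 6.99-fold (3.12 to 19.4) and Slit2 4.64-fold (2.04 to 13) higher than in brain. Efna5 and Slit3 had no UMI in brain endothelial-like cells. With that class set at 3 counts, they were 16.2-fold and 9.64-fold higher in lung, which are point values and not limits. Among receptors, Plxnd1 was 4.79-fold (3.9 to 5.94) and Plxna4 7.4-fold (2.42 to 36.9) higher, and Plxnc1 had 1 UMI in brain against 22.2 CPM (17.4 to 27.8) in lung. Brain endothelial-like cells were higher in Sema7a, 4.57-fold (3.7 to 5.65), in Sema3c, 3.15-fold (2.8 to 3.55), in Robo4, 2.15-fold (1.75 to 2.63), and in Plxna2, 2.13-fold (1.57 to 2.86). Plxnc1 is a receptor of Sema7a, so that ligand and receptor had opposite differences. Of the other pathway genes, 4 of 22 were higher in brain, among them Srgap2 (4.66-fold, 3.92 to 5.54) and the co-receptor Nrp2 (3.57-fold, 2.46 to 5.2), and 5 were higher in lung, against 11.1% and 14.1% of all genes.

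**Figure D3:**
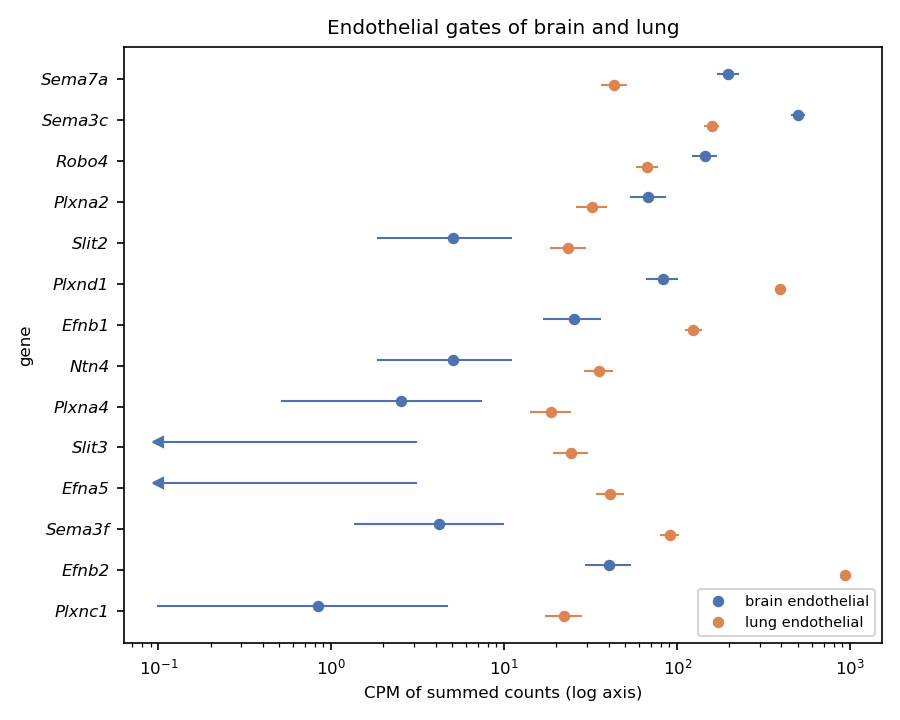
CPM (log axis) in brain (blue) and lung (orange) endothelial-like cells of 14 genes past 2-fold between them with at least 50 UMIs (the 4 higher in brain and, of 18 higher in lung, the 10 with the highest ratios), with 95% intervals of counting error; arrows mark no UMI, drawn up to the upper bound of the interval. Sema7a, Sema3c, Robo4 and Plxna2 were higher in brain, and Efnb2 shows the widest gap among the abundant genes, at 40.3 against 931 CPM.

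Pericyte-like cells were compared between the tissues in the same way. Of 38 guidance genes measured, 12 (31.6%) were higher in brain, against 17.2% of all genes, and 12 were higher in lung, against 14.5% of all genes, with a median log2 ratio of -0.36, against 0.07 for all genes. With cells of at least 3000 UMIs, which left 54 brain pericyte-like cells, 10 of 27 measured were higher in brain and 5 in lung. The share of all genes was not computed at that depth, so whether the balance moved cannot be told. Ntn1 was 72.6-fold higher (47.5 to 114) in brain, the largest ratio of this comparison among genes with at least 50 UMIs. Sema6a, Sema6d and Plxna2 were 5.12-fold (2.32 to 10.2), 4.96-fold (4.19 to 5.85) and 4.31-fold (1.97 to 8.45) higher in brain. Plxnd1 was 5.55-fold higher (2.54 to 15.2) in lung. Robo1, with no UMI in the brain class, was 3.94-fold higher in lung with the brain class set at 3 counts. Efna4, Epha8, Slit3 and Slit2 rested on 1 UMI each in brain pericyte-like cells, and the intervals of Slit3 (0.819 to 185) and Slit2 (0.627 to 143) for lung over brain included no difference. Of the other pathway genes, 4 of 22 were higher in brain, with Rgma 6.32-fold (4.58 to 8.59), and 2 were higher in lung, with the adaptor Nck2 3.68-fold (2.49 to 5.69), against 17.2% and 14.5% of all genes.

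The mesenchymal classes of the lung were set against each other to describe where cues and receptors were found. Of 43 guidance genes measured between myofibroblast-like and matrix fibroblast-like cells, 14 (32.6%) were higher in the former, against 15.1% of all genes, and 11 (25.6%) were higher in the latter, against 9.31% of all genes. The median log2 ratio was 0.39 for guidance genes and 0.31 for all genes. Of the 10 genes with the highest ratios towards myofibroblast-like cells and at least 50 UMIs, 6 were receptors, which make up 42.4% of the 59 members. In that direction 12 genes with at least 50 UMIs were past 2-fold, and those outside the 10 were the ligands Efna4 and Ntn3. Efna4 was at 32.9 against 10.9 CPM and Ntn3 at 11.5 against 5.12 CPM. The share of receptors was thus lower without the cut at 10. Plxna4 was at 56.6 against 0.961 CPM, 59-fold apart (20 to 288), Plxnb1 was 16.2-fold (6.15 to 60.7), Plxnc1 8.68-fold (6.12 to 12.7), Robo1 7.57-fold (5.65 to 10.4) and Robo2 5.02-fold (4.25 to 5.97) higher. The ligands Ntn4, a netrin of basement membranes, and Efnb2 were 21.2-fold (12.7 to 38.1) and 7.7-fold (5.4 to 11.3) higher.

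Of the 10 genes with the highest ratios towards matrix fibroblast-like cells and at least 50 UMIs, 8 were ligands, which make up 57.6% of the 59 members. Among genes with at least 20 UMIs, the receptor Epha5 would also rank among these 10, and the receptor Ephb1 among the 10 of myofibroblast-like cells. Slit3 was 15.5-fold (11.4 to 21.7) and Slit2 5.94-fold (4.22 to 8.53) higher than in myofibroblast-like cells. Sema3d, a secreted semaphorin, was at 105 CPM (93.7 to 117) against 2.18 CPM (1.09 to 3.9), and Efna5 at 136 CPM (124 to 150) against 3.96 CPM (2.42 to 6.12). The Eph receptors Ephb2 and Epha3 were on the same side, 13.2-fold (7.39 to 25.6) and 3.55-fold (2.97 to 4.27) higher. Sema3c, the most abundant member in both classes, was within 2-fold, at 323 CPM (308 to 339) in myofibroblast-like and 173 CPM (158 to 188) in matrix fibroblast-like cells. Slit3 was also present in 22.9% of thinned smooth muscle-like cells (14.4% to 33.4%, n = 83) and 13% of matrix fibroblast-like cells (9.77% to 16.7%, n = 386), against 1.09% of myofibroblast-like cells (0.499% to 2.06%, n = 826). The unthinned shares were 56.5%, 58.9% and 3.98%, at median depths of 6110, 8643 and 6121 UMIs.

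**Figure D4:**
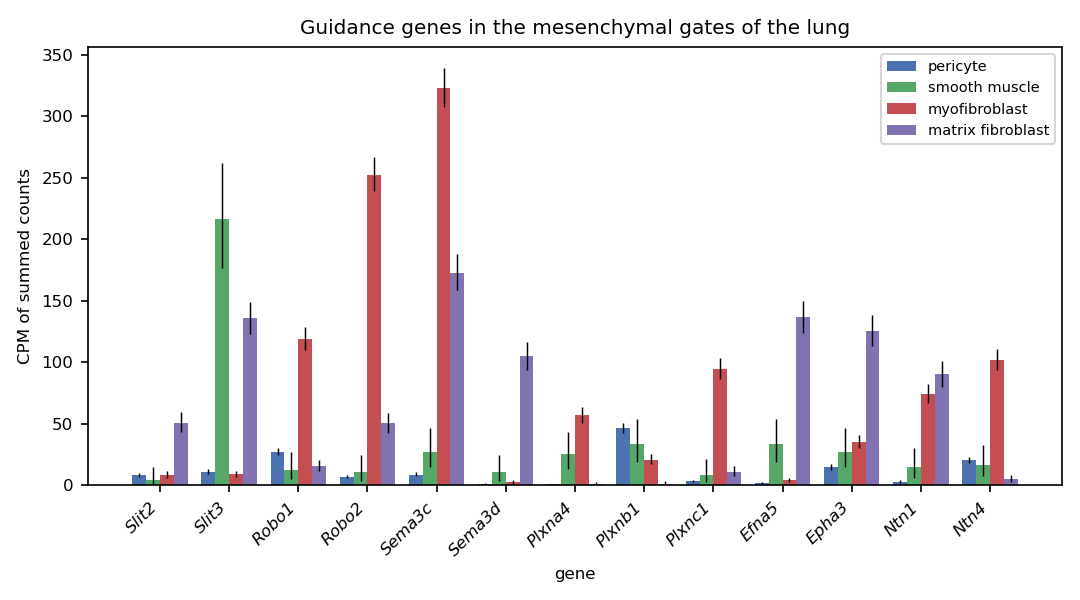
CPM of 13 guidance genes in the pericyte-, smooth muscle-, myofibroblast- and matrix fibroblast-like classes of the lung library, with 95% intervals of counting error as bars. Robo1 and Robo2 are tallest in myofibroblast-like cells (119 and 252 CPM), whereas Slit3 is tallest in smooth muscle-like cells (216 CPM) and Sema3d and Efna5 in matrix fibroblast-like cells (105 and 136 CPM).

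Lung pericyte-like cells had the lowest summed level of guidance genes of the 10 classes. Against matrix fibroblast-like cells, 14 of 47 genes measured (29.8%) were higher in pericyte-like cells, against 20.6% of all genes, and 21 (44.7%) were higher in matrix fibroblast-like cells, against 12% of all genes. The median log2 ratio was -0.37 for guidance genes and 0.34 for all genes. Plxnb1 was at 46.1 CPM (42.3 to 50.2) in pericyte-like and 1.28 CPM (0.349 to 3.28) in matrix fibroblast-like cells, 36-fold apart (14 to 133). Epha2 and Sema5b were 27.7-fold (7.58 to 231) and 13-fold (4.36 to 63.8) higher in pericyte-like cells. On the other side, Sema3d was 112-fold (61.8 to 227), Efna5 89.2-fold (55.7 to 152), Ntn1 34.2-fold (23.5 to 51.2), Ephb2 28.5-fold (16.3 to 54) and Sema3c 20.1-fold (16.2 to 25.1) higher in matrix fibroblast-like cells.

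Smooth muscle-like cells, with 85 cells and 481528 UMIs, were described by level alone. Slit3 at 216 CPM and Sema5a at 191 CPM (154 to 234) led their guidance genes, followed by Epha1 and Plxna2 at 56.1 CPM each (37 to 81.6) and Efnb2 at 51.9 CPM (33.6 to 76.6). Epha1 was at or under 12.8 CPM in the other 9 of the 10 classes compared here. Of the other pathway genes, 5 of 24 were higher in myofibroblast-like and 7 in matrix fibroblast-like cells, against 15.1% and 9.31% of all genes. Between pericyte-like and matrix fibroblast-like cells, 4 of 24 were higher in the former, against 20.6% of all genes, and 6 in the latter, against 12%. Dpysl3 was at 220 CPM in matrix fibroblast-like cells, 5.56-fold (4.75 to 6.54) above myofibroblast-like and 13.2-fold (11.3 to 15.6) above pericyte-like cells, and Chn1 was 11.3-fold (7.12 to 19) and 17.4-fold (11.1 to 29.1) higher in myofibroblast-like and pericyte-like cells than in matrix fibroblast-like cells.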

How the data were processed

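Droplet single-cell RNA libraries (Chromium 3′ v3) were made from sorted cells. The authors processed reads with UMI-tools, STAR and featureCounts against mm10; per the labels the versions were UMI-tools 1.0.0, STAR 2.7.1a and featureCounts 1.6.4. The annotation is not given in the sources used here. The deposited values are UMI counts per gene and barcode, without normalization. Barcodes with over 200 and under 4000 genes and under 40% mitochondrial counts were kept, a filter the methods state. The deposited tables hold as many barcodes as the study shows cells, so the cells analysed here are fewer than those it shows, and without the upper limit of genes the activated class held 123 cells in place of 65. Doublets were kept; Scrublet (scanpy 1.11.5) called 1.06% of brain and 1.32% of lung cells.

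Counts were summed per class. Ratios carry exact conditional binomial intervals, levels exact Poisson intervals and shares exact (Clopper-Pearson) intervals, all at 95% and for counting error only (scipy 1.17.1). A class with 0 UMIs was set to 3 counts, and no ratio was given where both classes had 3 UMIs or fewer, or where that floor was not below the other class, a rule set after seeing the data. A ratio against a class set to 3 counts is a point value and not a 95% limit. Calculations were tested on simulated data.

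The members, marker lists and comparisons were chosen with earlier results of these data known. Genes were named by rule: the 5 most abundant members of a class, up to 10 a direction past 2-fold with at least 50 UMIs in a comparison, the class of highest level for ligands and receptors, and up to 5 other pathway genes a comparison. Alternatives were other filters, gates, clusters in place of gates, depth limits and call thresholds.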

Additional observations from a re-analysis of the deposited data

Results flagged for a closer look

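Ntn1 was singled out because its difference between endothelial-like and pericyte-like cells had opposite directions in the tissues. Its CPM ratio of endothelial-like over pericyte-like cells was 0.0614 (0.0322 to 0.109) in brain and 17.1 in lung. Since each tissue had 1 library, whether these ratios differ was not tested.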

How the results depend on the processing

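The 154 ratios of named genes were all past 2-fold, from at least 50 UMIs. Under the alternatives, 1151 of 1200 values stayed within counting error, 49 moved by more and 0 changed direction. A change of direction was unlikely for genes chosen in this way, as the alternatives drew on overlapping cells of the same libraries. Of 176 counts of genes past 2-fold, 170 stayed within 1.5 times the reported count. With at least 50 UMIs over both classes, 4 genes (reported 7) were higher in the activated than the quiescent class, and 3 (reported 5) higher in the activated class than in neuroblast-like cells. With 3-fold in place of 2-fold, the numbers were 4 for activated over quiescent, 7 (reported 12) for lung over brain pericyte-like cells and 7 (reported 14) for lung pericyte-like over matrix fibroblast-like cells. With cells of at least 3000 UMIs, which left 54 brain pericyte-like cells, 5 genes were higher in lung and 10 (reported 12) in brain pericyte-like cells. The stricter thresholds and smaller classes leave fewer genes to call. Shares of all genes were not computed under these settings, so these counts have no background beside them. Of 69 numbers of cells, 10 moved: the matrix fibroblast-like class held 185 cells under a stricter gate and 725 by clusters, and the activated class 40 under a stricter gate and 123 without the upper limit of genes. No cluster took the activated name, so comparisons with that class had no value by clusters. No paired analysis was possible because each group was 1 library. Small summed counts in the brain pericyte-like, lung smooth muscle-like and activated progenitor-like classes limit what can be seen at low levels.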

Other observations

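Guidance genes were also found in gated classes outside the comparisons. In brain, mature oligodendrocyte-like cells (92 cells) had Efnb3, a transmembrane ephrin known from myelin, at 391 CPM (341 to 446), Sema6a at 300 CPM (257 to 348) and Plxnb3 at 268 CPM (227 to 314). Oligodendrocyte precursor-like cells (150 cells) had Sema5a at 249 CPM (215 to 287) and Sema3d at 210 CPM (179 to 244). Plxnb3 was at or under 5.03 CPM in the 10 classes compared above. Ependymal-like cells (91 cells) had Sema6d at 217 CPM (181 to 258), Plxnb2 at 205 CPM (170 to 245) and Slit2 at 87.5 CPM (65.3 to 115).

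In lung, Schwann-like or neural-like cells (33 cells) had Sema3c at 470 CPM (372 to 585) and Sema3b at 238 CPM (170 to 324), the latter at or under 20.8 CPM in the 10 classes. T cell-like cells (98 cells) had Sema4d at 62.4 CPM (36.4 to 99.9) and Ephb6 at 47.7 CPM (25.4 to 81.6). Lung cells outside the gates (1237 cells) had Sema3c at 151 CPM (142 to 160), Robo2 at 122 CPM (114 to 130) and Slit3 at 73.6 CPM (67.4 to 80.1).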
